A study of Homo sapiens with 6 samples.

Results

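The genes described here are 9 genes of the HLA class I pathway: the heavy chain genes HLA-B, HLA-C and HLA-E, the light chain gene B2M, the peptide transporter genes TAP1 and TAP2, the loading chaperone TAPBP, the peptide-trimming enzyme ERAP1 and the class I transactivator NLRC5. They were picked by symbol, but with earlier results of these data known. All 9 are present among 27281 gene symbols, each on 1 row, whereas 396 other symbols are repeated over 849 of the 27734 gene rows. RNA was sequenced from PC-3, an epithelial line from a bone metastasis of a human prostate cancer. The resistant group (GDC-R, 3 libraries) was kept under the AKT inhibitor GDC-0068, also called ipatasertib, and the control group (3 libraries) was carried alongside in the solvent DMSO; both were used at passages 20-30. No label states the drug dose, whether drug was present at harvest, or whether the resistant cells are 1 clone or a pool. The labels do not say that libraries came from separate cultures, so p-values measure the spread between these libraries only, which may be technical.

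A class I molecule is a heavy chain held together with β2-microglobulin (B2M) and a short peptide, shown at the cell surface to CD8 T cells and natural killer cells. Proteasomes cut proteins into peptides, the TAP1-TAP2 transporter carries these into the endoplasmic reticulum, ERAP1 trims them, and tapasin (TAPBP) holds an empty class I molecule at the transporter until a peptide fits. The class I and B2M promoters share a module that binds NF-κB, interferon regulatory factors, RFX, CREB/ATF and NF-Y, on which NLRC5 acts as coactivator, and reduced class I expression is a common route by which tumours avoid T cells.

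Of the 9 genes, 6 rose in the resistant cells (HLA-B, HLA-C, HLA-E, TAP1, TAPBP and ERAP1), 0 fell, TAP2 and B2M did not pass the test, and NLRC5 was too low to be tested. Among all 13122 tested gene rows, 50.2% were called, 24.5% higher and 25.7% lower, so 6 of 8 is read against that share of higher calls. Because the genes were chosen with earlier results known, the count describes them and is no independent test. The test was edgeR's quasi-likelihood test on fragment counts with p-values adjusted over all tested rows, at an adjusted p threshold of 0.05. Of the 8 tested genes 0 were lower at an unadjusted p under 0.05 as well, and DESeq2 and limma also called 6 higher and 0 lower. The median log2 fold change (resistant against control) was 0.48 over these 8 genes and -0.0088 over all tested rows. Each of the 8 was at 7.55 FPKM or more in every library, where FPKM is the authors' fragment count scaled by mRNA length and by the library's total. FPKM did not overlap between the groups, with every resistant library higher, for 7 of the genes (TAP2 included), beside 31.9% of all tested rows.

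**Figure D1:**
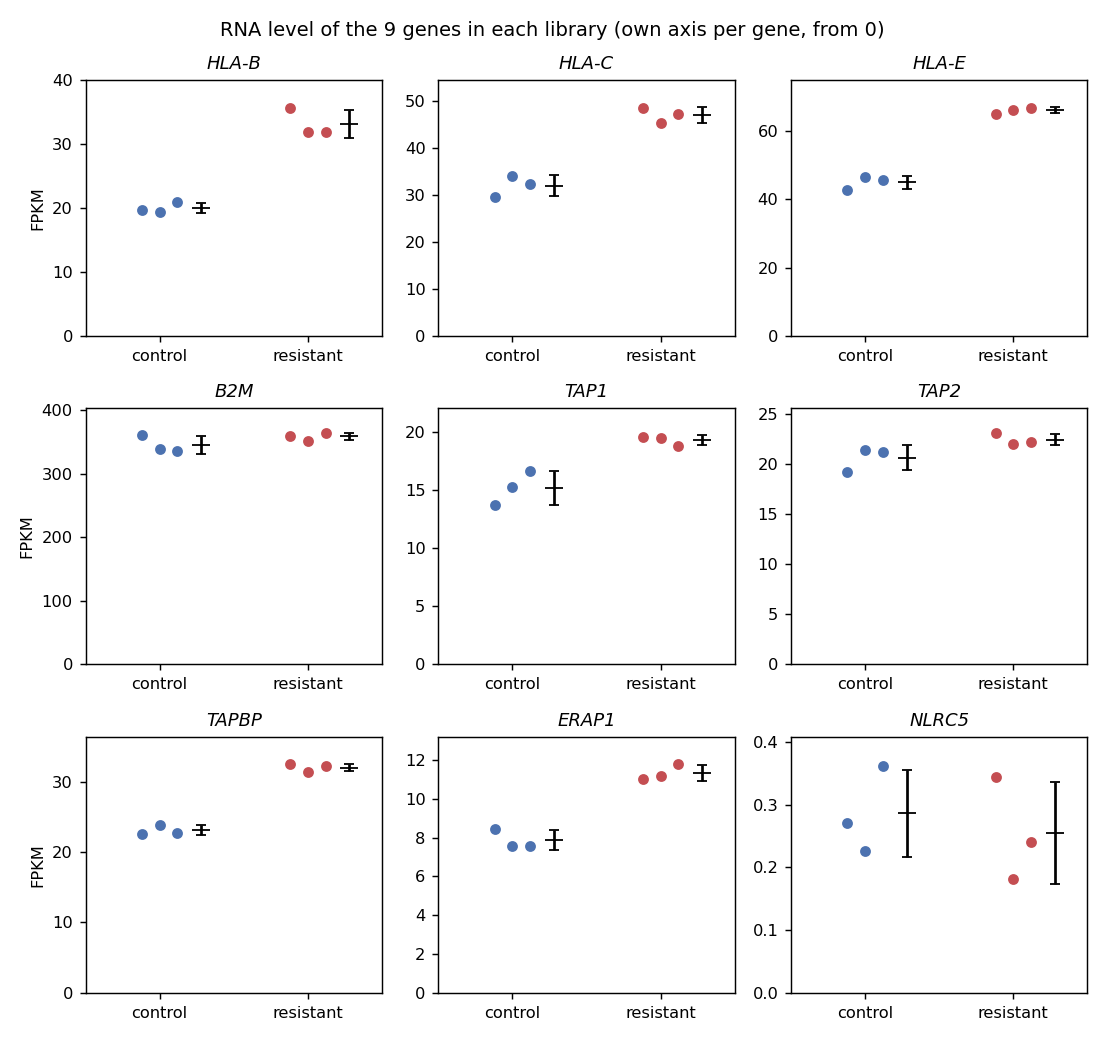
FPKM of each of the 9 genes (y axes, from 0, 1 scale per gene) in the 3 control and 3 resistant libraries (dots), with the group mean and SD beside them. HLA-B, HLA-C, HLA-E, TAP1, TAP2, TAPBP and ERAP1 show no overlap between the groups, and B2M and NLRC5 do.

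Each library held 35562400 to 44279078 counted fragments. Control replicate 1 was unlike the other controls in GC content. Its log2 difference from the mean of the other controls had a Spearman correlation of -0.75 with transcript GC over 12547 genes. The same measure was 0.59 and 0.64 in the other controls. Calls of these genes that changed without control replicate 1 or with a GC correction are given beside their results. For the lists some such changes are given, and not every one. Epithelial markers (EPCAM, KRT8, KRT18, KRT19, CDH1) were all expressed and summed to 1360 to 1536 FPKM in control and 1273 to 1342 in resistant libraries, a sum carried by the keratins. Of these 5, CDH1 (65.2 to 34.0 FPKM, log2 fold change -0.96, edgeR adjusted p = 1.25e-06), KRT19 (-0.34) and EPCAM (-0.27) fell, and the part of this in the results was not tested. Leukocytes carry much class I RNA: their 10 markers summed to 0.229 to 0.311 FPKM in control and 0.335 to 0.457 in resistant libraries, with CD3D, CD2 and MS4A1 among those at 0 in all 6. The summed FPKM of 5 endothelial markers was 3.59 to 4.10 in control and 1.97 to 2.36 in resistant libraries, and that of 5 fibroblast markers 2.61 to 3.40 and 1.75 to 2.02. These sums were carried by KDR and PECAM1 and by COL1A1; KDR and COL1A1, the only ones tested, fell, while VWF, CDH5, CLDN5 and LUM had higher means in resistant libraries, all under 0.5 FPKM. Their part in the results was not tested. In bulk RNA, fewer cells of a type and less RNA per cell cannot be told apart.

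The heavy chain genes come first. HLA-B encodes a highly polymorphic classical heavy chain; its mRNA model of 1611 bases lies on the minus strand at chr6:31321643-31325022 (hg19). HLA-B stood at 19.8, 19.5 and 20.9 FPKM in the control libraries and at 35.6, 31.9 and 31.9 FPKM in the resistant ones. Every resistant library lay well above every control library, and the resistant replicate 1 was the highest. HLA-B had the largest fold change of the 8 tested genes, although HLA-E and HLA-C gained more FPKM. It rose from 20.1 ± 0.781 to 33.1 ± 2.18 FPKM (mean ± SD over 3 libraries each), and its log2 fold change was 0.70 ± 0.06 (SE; edgeR adjusted p = 5.22e-05) on 1187 to 1223 against 1933 to 2153 fragments.

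HLA-C (chr6:31236526-31239913, minus strand) encodes the other classical chain of this adjacent pair, which is also the main class I ligand of killer-cell inhibitory receptors. Its FPKM was 29.5, 34.1 and 32.3 in control and 48.5, 45.3 and 47.1 in resistant libraries. The groups did not overlap, and control replicate 1 was the lowest library. HLA-C rose from 32.0 ± 2.27 to 46.9 ± 1.60 FPKM (SD, 3 libraries each; log2 fold change 0.53 ± 0.06 SE, edgeR adjusted p = 0.000168).

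HLA-E (chr6:30457183-30461982, plus strand) encodes a nearly invariant chain that shows signal peptides of other class I chains to the NKG2A receptor of natural killer cells. It stood at 42.8, 46.5 and 45.6 FPKM in control and 65.1, 66.2 and 66.9 FPKM in resistant libraries. The resistant libraries lay close together and far above the controls. HLA-E went from 45.0 ± 1.90 to 66.1 ± 0.916 FPKM (SD, n = 3 each), with a log2 fold change of 0.54 ± 0.04 (SE; edgeR adjusted p = 3.13e-05). HLA genes are near-identical over long stretches, and no source used here says how fragments that match several copies were counted, so the division of fragments between HLA-B, HLA-C and other HLA rows is uncertain.

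B2M (chr15:45003685-45010357, plus strand) encodes the light chain that all class I molecules share, and it is the only one of the heavy and light chain genes off chromosome 6. Its FPKM was 361, 338 and 336 in control and 359, 352 and 364 in resistant libraries. The groups overlapped, with control replicate 1 between the resistant libraries. B2M averaged 345 ± 13.9 FPKM in control and 358 ± 6.16 FPKM in resistant cells (SD, n = 3 each), and its log2 fold change of 0.03 ± 0.05 (SE) did not pass (edgeR adjusted p = 0.567). B2M passed as higher, by 0.07, when control replicate 1 was left out (adjusted p = 0.0262) and, by 0.10, with a GC correction (adjusted p = 0.0182).

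Since FPKM is per length, heavy and light chain RNA can be set against each other within a library. The summed FPKM of HLA-B, HLA-C and HLA-E per B2M FPKM was 0.255, 0.296 and 0.294 in control libraries and 0.415, 0.408 and 0.401 in resistant libraries. The groups did not overlap, and the mean went from 0.282 ± 0.0229 to 0.408 ± 0.00705 (SD, n = 3 each), a ratio of 1.45. The exact two-sided permutation test gave p = 0.1, the smallest that 3 against 3 libraries allow. B2M RNA remained in excess of each chain: it was 17.2 times the HLA-B level in control and 10.8 times in resistant cells, 10.8 and 7.63 times that of HLA-C, and 7.67 and 5.42 times that of HLA-E.

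The promoter sequences of HLA-B, HLA-C and B2M are shown because heavy chain RNA rose and B2M did not pass, although these 3 promoters carry the same kind of module. Each is the 250 bases before the RefSeq start site, read 5′ to 3′ on the gene's strand (GRCh38.p14, a later build than that of the tables): chr6:31357180-31357429 on the minus strand for HLA-B, chr6:31272093-31272342 on the minus strand for HLA-C and chr15:44711267-44711516 on the plus strand for B2M. Capitals mark, on either strand, the core letters of an interferon regulatory factor site (AANNGAAA), the X2 core bound by CREB/ATF (TGACG), the CCAAT box bound by NF-Y (the Y box) and the κB letters GGGGATTC.
HLA-B: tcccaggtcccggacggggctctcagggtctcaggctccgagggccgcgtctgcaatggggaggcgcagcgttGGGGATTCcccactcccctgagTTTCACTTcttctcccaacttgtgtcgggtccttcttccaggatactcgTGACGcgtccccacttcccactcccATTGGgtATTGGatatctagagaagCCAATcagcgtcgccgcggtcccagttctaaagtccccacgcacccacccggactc
HLA-C: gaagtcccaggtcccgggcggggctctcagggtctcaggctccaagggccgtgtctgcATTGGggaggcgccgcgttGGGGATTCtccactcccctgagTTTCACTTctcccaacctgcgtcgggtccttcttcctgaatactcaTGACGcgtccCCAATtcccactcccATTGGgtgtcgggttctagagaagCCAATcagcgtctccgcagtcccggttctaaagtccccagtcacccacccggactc
B2M: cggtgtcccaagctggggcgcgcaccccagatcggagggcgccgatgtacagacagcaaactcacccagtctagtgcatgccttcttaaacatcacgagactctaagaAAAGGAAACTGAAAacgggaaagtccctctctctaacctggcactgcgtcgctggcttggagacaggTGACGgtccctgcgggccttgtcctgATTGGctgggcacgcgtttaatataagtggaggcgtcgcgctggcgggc
HLA-B and HLA-C share 89.0% of bases over 254 aligned columns, and each holds the κB letters, then the IRF core, then the X2 core, then a Y box that begins 25 bases after the X2 core, 1 of 3 Y box matches in HLA-B and of 4 in HLA-C. In B2M the exact letters GGGGATTC were not found, the IRF core is present in 2 overlapping copies, and the Y box begins 26 bases after the X2 core. Other forms of a κB site were not searched for and may lie unmarked in any printed sequence. The absence of these letters therefore does not show that B2M lacks a κB site. The other Y boxes begin 32 and 50 bases after the X2 core in HLA-B, and 10 and 49 bases after it and 87 bases before it in HLA-C; the match nearest to the B2M spacing was picked out. Aligned, the B2M sequence is 47.3% identical to HLA-B and 45.3% to HLA-C.

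RefSeq promoter windows (300 bases, to 50 bases past the start) matched 7 of the 9 genes with 9 start sites, TAP1 and ERAP1 having 2 each; HLA-E and NLRC5 are not in the table. The IRF core was in 8 of the 9 windows, and in 22.8% of all 35116 RefSeq promoter windows. The X2 core was in 4 of 9 (24.6% of all), the Y box in 5 of 9 (34.6% of all), and the κB letters in 2 of 9 (0.888% of all). Only GGGGATTC was counted as κB letters, so windows with another form of the site are not in that count. HLA-B, HLA-C and B2M held the IRF core, the X2 core and the Y box together, which 1.63% of all windows did. The letters of these motifs were settled after the genes' own promoters had been read, so the counts describe these windows and are no independent evidence. The matches overlap in places, and a match is not evidence that a factor binds.

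**Figure D2:**
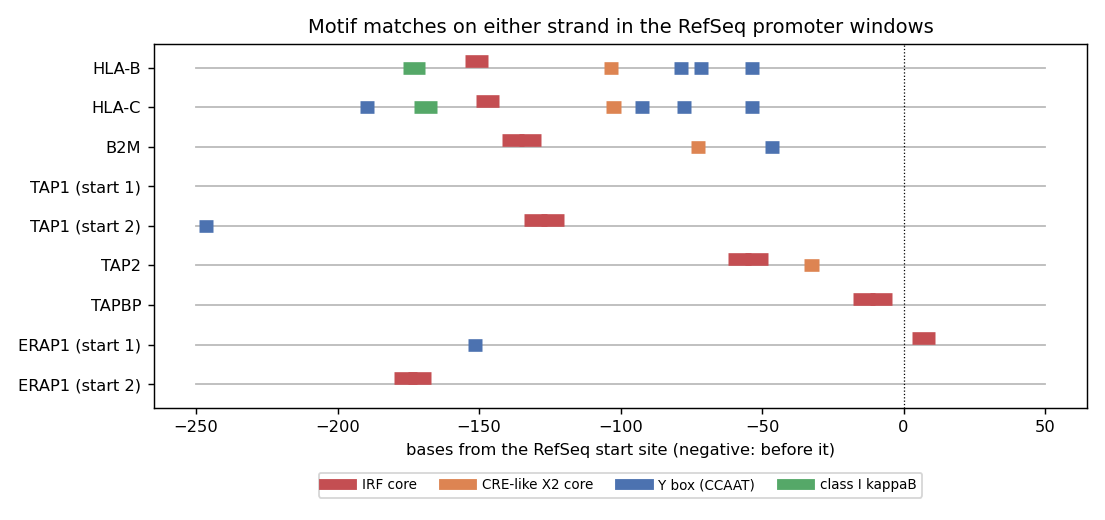
Matches of 4 motifs on either strand in the promoter windows of 7 genes, as distance in bases from the RefSeq start site (x axis; 1 line per start site). Each coloured bar is a match as long as the motif; the IRF core appears on 8 of the 9 lines, and the order κB, IRF core, X2 core, Y box is seen on the HLA-B and HLA-C lines.

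The peptide transporter is a heterodimer, and its subunit genes lie in the class II region of chromosome 6 with PSMB8 between them. TAP1 (chr6:32812986-32821748, minus strand) stood at 13.7, 15.2 and 16.6 FPKM in control libraries and at 19.6, 19.5 and 18.8 FPKM in resistant libraries. The groups did not overlap, although the control libraries were spread out. TAP1 rose from 15.2 ± 1.44 to 19.3 ± 0.446 FPKM (SD, n = 3 each), with a log2 fold change of 0.33 ± 0.07 (SE; edgeR adjusted p = 0.00475), the smallest of the 6 rises.

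TAP2 (chr6:32789610-32806600, minus strand), the partner subunit, stood at 19.2, 21.4 and 21.2 FPKM in control and 23.0, 22.0 and 22.1 FPKM in resistant libraries. The resistant libraries were all just above the highest control, but the gap was small. TAP2 averaged 20.6 ± 1.22 and 22.4 ± 0.548 FPKM (SD, n = 3 each), and its log2 fold change of 0.10 ± 0.05 (SE) did not pass (edgeR adjusted p = 0.131), nor in any of 18 alternatives, where the lowest adjusted p was 0.0561. The TAP1 to TAP2 ratio of FPKM was 0.736 ± 0.0399 in control and 0.861 ± 0.0213 in resistant libraries (SD, n = 3 each) and did not overlap between the groups; the exact permutation test gave p = 0.1 and, adjusted over the 7 ratios computed, 0.14. TAP1 shares 1292 bases with PSMB8-AS1 on the opposite strand, whose log2 fold change was 0.41 ± 0.08 (SE; edgeR adjusted p = 0.00284). Whether the authors' counting used strand is not stated in the labels, so fragments of these genes may not be told apart.

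The TAP1 promoter is shown for its IRF cores, with the same capitals as above (chr6:32853705-32853954, minus strand, GRCh38.p14, the more upstream of its 2 RefSeq start sites), and that of TAPBP for comparison (chr6:33314079-33314328, minus strand).
TAP1: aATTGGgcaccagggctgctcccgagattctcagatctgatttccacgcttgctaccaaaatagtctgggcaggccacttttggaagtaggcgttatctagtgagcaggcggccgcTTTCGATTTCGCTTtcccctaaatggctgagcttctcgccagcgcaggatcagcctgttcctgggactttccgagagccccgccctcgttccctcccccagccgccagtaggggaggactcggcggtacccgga
TAPBP: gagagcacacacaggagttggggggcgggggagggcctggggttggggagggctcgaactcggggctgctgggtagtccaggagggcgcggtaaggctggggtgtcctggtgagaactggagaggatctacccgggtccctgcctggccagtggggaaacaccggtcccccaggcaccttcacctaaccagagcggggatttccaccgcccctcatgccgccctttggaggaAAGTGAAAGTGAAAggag
Each holds 2 overlapping IRF cores and neither holds an X2 core. The IRF cores begin 134 and 128 bases before the TAP1 start site and 18 and 12 bases before the TAPBP start site, and the other RefSeq start site of TAP1 has no match to any of the 4 motifs in its window.

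TAPBP encodes tapasin, which bridges the transporter and an empty class I molecule and edits its peptides; it lies at chr6:33267472-33282164 on the minus strand. TAPBP stood at 22.6, 23.9 and 22.7 FPKM in control and 32.4, 31.4 and 32.2 FPKM in resistant libraries. Both groups were tight and far apart. TAPBP rose from 23.1 ± 0.707 to 32.0 ± 0.562 FPKM (SD, n = 3 each), with a log2 fold change of 0.45 ± 0.04 (SE; edgeR adjusted p = 7.09e-05). PDIA3, the disulphide isomerase that is bound to tapasin in the loading complex, fell from 84.9 ± 1.09 to 67.2 ± 0.489 FPKM (SD, 3 libraries each; log2 fold change -0.36 ± 0.04 SE, edgeR adjusted p = 0.000138). The TAPBP to PDIA3 ratio of FPKM went from 0.272 ± 0.00962 to 0.476 ± 0.00863 (SD, n = 3 each) with no overlap (exact permutation p = 0.1, adjusted 0.14).

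ERAP1 encodes an aminopeptidase of the endoplasmic reticulum that trims peptides to the length that class I molecules bind (chr5:96096514-96149848, minus strand). ERAP1 stood at 8.47, 7.55 and 7.59 FPKM in control libraries and at 11.0, 11.2 and 11.8 FPKM in resistant libraries. The groups did not overlap, and the highest control library was replicate 1. ERAP1 rose from 7.87 ± 0.524 to 11.3 ± 0.399 FPKM (SD, n = 3 each), with a log2 fold change of 0.51 ± 0.06 (SE; edgeR adjusted p = 0.000288). ERAP1 shares 13872 bases with CAST, the calpain inhibitor gene on the opposite strand, which had a smaller log2 fold change of 0.16 ± 0.04 (SE; edgeR adjusted p = 0.0142). The CAST call was lost without control replicate 2 (0.14, adjusted p = 0.0632) and without resistant replicate 3 (0.15, adjusted p = 0.0686). ERAP2, the related trimming enzyme, rose along with ERAP1, from 4.10 ± 0.0387 to 5.59 ± 0.151 FPKM (SD, 3 libraries each; log2 fold change 0.43 ± 0.06 SE, edgeR adjusted p = 0.00033). The ERAP1 to ERAP2 ratio of FPKM was 1.92 ± 0.117 in control and 2.02 ± 0.0565 in resistant libraries (SD, n = 3 each), and these ratios overlapped (exact permutation p = 0.3, adjusted 0.3).

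NLRC5, the class I transactivator (chr16:57023397-57117436, plus strand), was detected near the lower limit of these libraries. Its counts were 71, 60 and 87 fragments in control and 79, 52 and 63 in resistant libraries, or 0.270, 0.226 and 0.362 FPKM against 0.343, 0.182 and 0.240 FPKM. The groups overlapped, and neither stood above the other. NLRC5 averaged 0.286 ± 0.069 FPKM in control and 0.255 ± 0.0819 FPKM in resistant cells (SD, n = 3 each), below the mean of 1 FPKM required for a test. With no filter on low values its log2 fold change was -0.23 ± 0.23 (SE, edgeR adjusted p = 0.49 over 22372 rows), so no change of NLRC5 was detected. A change of the size of that error could not be told from none.

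**Figure D3:**
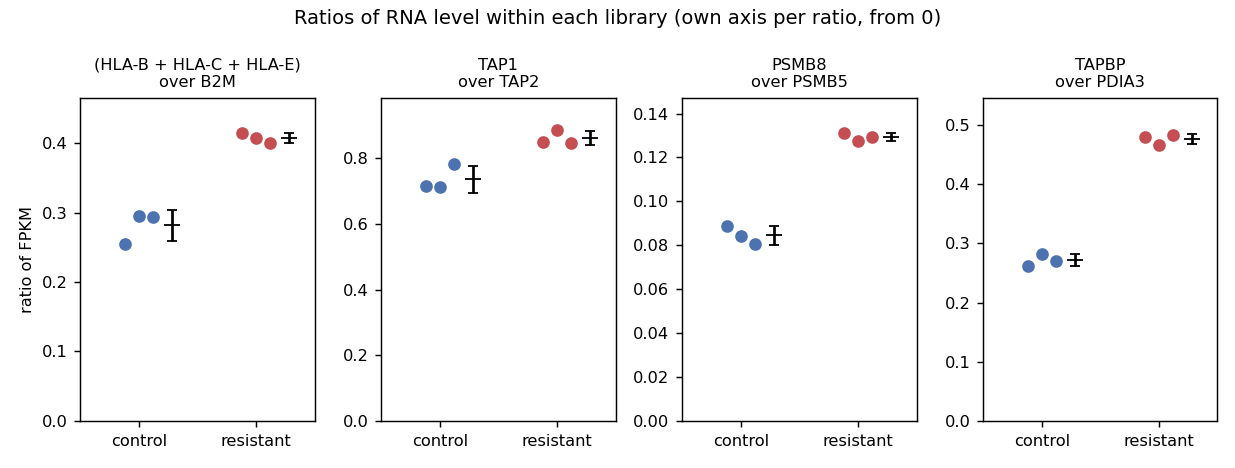
Ratios of FPKM within a library (y axes, from 0) for HLA-B, HLA-C and HLA-E together over B2M, TAP1 over TAP2, PSMB8 over PSMB5 and TAPBP over PDIA3, in 3 control and 3 resistant libraries (dots) with group mean and SD. In each of the 4 panels the resistant libraries lie above all control libraries. Not every ratio computed is drawn. PSMB10 over PSMB7 and ERAP1 over ERAP2, which overlapped between the groups, are left out. PSMB9 over PSMB6 and HLA-B over HLA-C, which did not overlap, are left out too. Apart from the heavy chain ratio, the pairs were chosen after the values had been seen.

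In control cells the order of the genes by FPKM was B2M, HLA-E, HLA-C, TAPBP, TAP2, HLA-B, TAP1, ERAP1 and NLRC5. TAP2 and HLA-B were the only neighbours in that order whose library ranges overlapped. In resistant cells HLA-B had moved from position 6 to position 4, and it was HLA-B and TAPBP whose ranges overlapped. The HLA-B to HLA-C ratio of FPKM was 0.630 ± 0.0515 in control and 0.706 ± 0.0293 in resistant libraries (SD, n = 3 each) with no overlap (exact permutation p = 0.1, adjusted 0.14). The gap was small, with the highest control library at 0.669 and the lowest resistant library at 0.677. This ratio rests on the division of fragments between HLA-B and HLA-C, which is uncertain as stated above. The ratio pairs were chosen after the genes' values had been seen.

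The 5 genes whose profile over the 6 libraries was most like that of HLA-B were NCKAP5, MIR4435-2HG, DUSP14, BTG3 and C22orf46. Their root-mean-square differences from HLA-B were 0.0401, 0.0453, 0.0484, 0.0489 and 0.0492. These are in centred log2 counts scaled by library total and TMM factor (log2 CPM). None of these 5 is in a list of the class I pathway used here. The other class I genes lay further off: of all tested rows, ordered by likeness to HLA-B, HLA-C had rank 358, HLA-E 368, ERAP1 644, TAPBP 649, TAP1 1482, TAP2 4096 and B2M 5223. This likeness describes 6 libraries of 2 groups and says little beyond the size of the group difference.

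Other genes were taken from 8 lists, all of the class I pathway except the class II list. Only HLA-DMA was tested from the class II list, and it rose. The lists held 81 genes, of which 63 were tested. Of these, 21 rose (33.3%), 15 fell (23.8%) and 27 did not pass, and their median log2 fold change was 0.07. The corresponding shares over all tested rows were 24.5% and 25.7%. Without resistant replicate 1 the number that fell was 9, and without resistant replicate 2 it was 8.

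**Figure D4:**
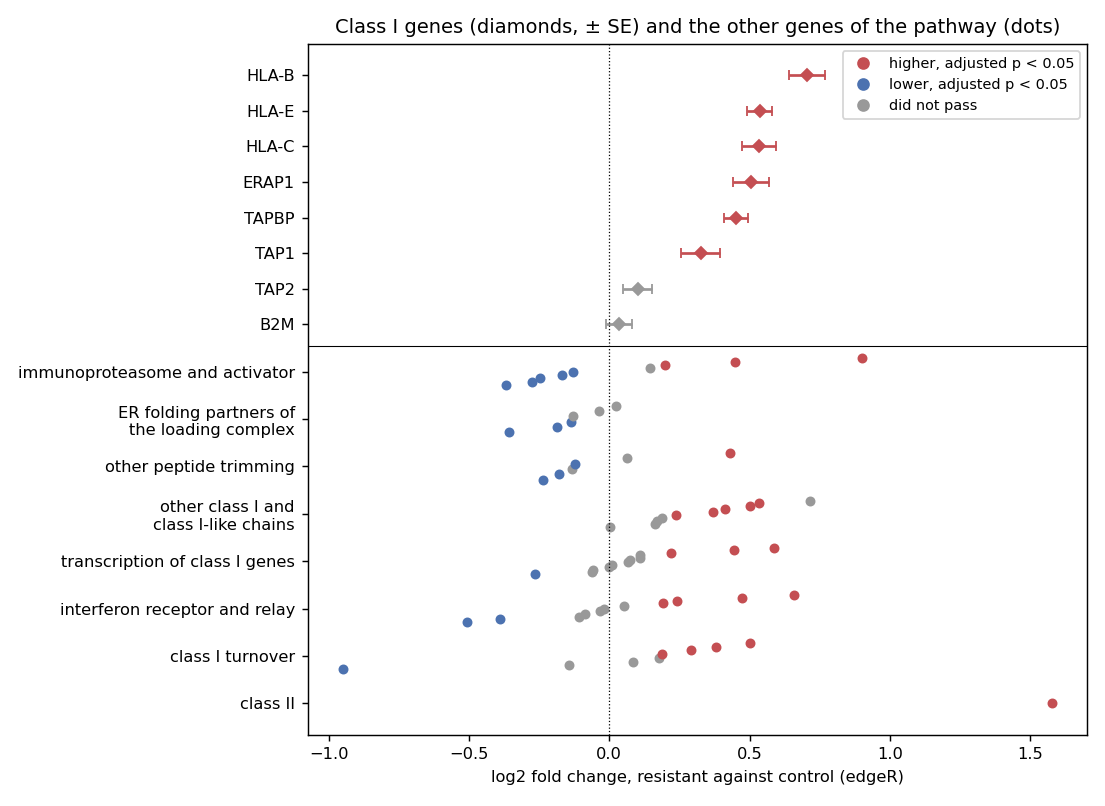
Log2 fold change of resistant against control (x axis) for the 8 tested genes described above (diamonds with SE) and for 63 tested list genes (dots). The 8 lists are of the class I pathway, except that of class II genes. Red and blue mark genes that passed an adjusted p of 0.05 as higher or lower and grey those that did not; 6 diamonds are red and 0 are blue, while the lists of proteasome subunits, folding partners and trimming enzymes hold more blue than red dots.

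Peptides for class I come from proteasomes, whose standard catalytic subunits are replaced by interferon-inducible ones in the immunoproteasome. Among the 9 tested genes of this list, 3 were called higher (33.3%), 5 lower (55.6%) and 1 neither, beside 24.5% higher and 25.7% lower of all tested rows. The 3 became 4 without control replicate 1 and 2 without resistant replicate 1. The 5 became 3 in each fit without control replicate 2 or 3 or any 1 of the resistant libraries. PSMB8, the inducible counterpart of PSMB5 and a neighbour of TAP1 and TAP2, rose from 16.4 ± 0.610 to 22.6 ± 0.547 FPKM (SD, 3 libraries each; log2 fold change 0.45 ± 0.05 SE, edgeR adjusted p = 0.000254). Like TAP1, PSMB8 overlaps PSMB8-AS1 on the opposite strand, which held 370 to 552 fragments per library against 1004 to 1654 for PSMB8. Their fragments may not be told apart, which also limits the PSMB8 to PSMB5 ratio. PSMB10, the inducible counterpart of PSMB7, fell from 32.2 ± 3.81 to 25.3 ± 1.27 FPKM (edgeR adjusted p = 0.0085), and the standard subunits PSMB6 (253 to 212 FPKM, edgeR adjusted p = 0.00103) and PSMB7 (206 to 176 FPKM, edgeR adjusted p = 0.00152) fell too. The PSMB8 to PSMB5 ratio of FPKM went from 0.0845 ± 0.00422 to 0.129 ± 0.00188, and that of PSMB9 to PSMB6 from 0.00615 ± 0.00191 to 0.0140 ± 0.0031, neither with overlap, while that of PSMB10 to PSMB7 was 0.156 ± 0.0145 and 0.144 ± 0.00663 with overlap (SD, n = 3 each; exact permutation p = 0.1, 0.1 and 0.3, adjusted 0.14, 0.14 and 0.3). PSMB9 itself, named here after its values were seen, was low at 1.55 ± 0.456 and 2.96 ± 0.614 FPKM, and its call (edgeR adjusted p = 0.0124) was lost without resistant replicate 3 (log2 fold change 0.74, adjusted p = 0.0556). The calls lost in those 5 fits were PSMB5 (log2 fold change -0.17, edgeR adjusted p = 0.0216; -0.14 to -0.18 in those fits) and the activator subunit gene PSME3 (-0.13, edgeR adjusted p = 0.0396; -0.095 to -0.14).

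Of 6 tested folding partners of the loading complex, 4 fell with a GC correction, 5 without control replicate 1 and 1 without resistant replicate 2. In the main edgeR fit 0 rose (0%) and 3 fell (50%), and 0 were higher at an unadjusted p under 0.05. Of all tested rows 24.5% rose and 25.7% fell in that fit. Those that fell were PDIA3, given above, HSPA5, the chaperone BiP (65.3 ± 3.50 to 58.1 ± 0.619 FPKM, log2 fold change -0.19, edgeR adjusted p = 0.00951), and UGGT1, the glucosyltransferase that returns unfinished class I molecules for another round (23.6 ± 0.550 to 21.8 ± 0.739 FPKM, log2 fold change -0.13, edgeR adjusted p = 0.035). HSPA5 lost its call without resistant replicate 2 (-0.18, adjusted p = 0.0532), and UGGT1 in 4 of 6 fits with a library left out (-0.12 to -0.15, adjusted p 0.0577 to 0.149). Of 6 other trimming enzymes ERAP2 rose and 3 cytosolic peptidases fell: THOP1 (32.5 to 28.0 FPKM, adjusted p = 0.0301), TPP2 (13.3 to 11.9 FPKM, adjusted p = 0.0163) and NPEPPS (42.4 to 39.5 FPKM, adjusted p = 0.0488), all by edgeR. Each of these 3 lost its call in at least 3 of 6 fits with a library left out, at adjusted p of 0.0692 to 0.118 for THOP1, 0.0583 to 0.0741 for TPP2 and 0.0717 to 0.191 for NPEPPS. The 3 became 1 with a GC correction or without control replicate 3, and 0 without any 1 of the resistant libraries. With a GC correction NPEPPS had a log2 fold change of 0.0023 and TPP2 of -0.10.

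Among other class I and class I-like chains 10 of 16 genes were tested, 5 rose (3 without resistant replicate 1) and 0 fell, also 0 at an unadjusted p under 0.05 by edgeR. The shares were 50% and 0%, beside 24.5% and 25.7% of all tested rows. FCGRT, the heavy chain of the neonatal Fc receptor, which also pairs with B2M, rose from 18.1 ± 2.15 to 26.6 ± 0.766 FPKM (SD, 3 libraries each; log2 fold change 0.54 ± 0.08 SE, edgeR adjusted p = 0.000844). MICB, a stress-induced ligand of the NKG2D receptor, rose from 19.1 ± 1.08 to 25.7 ± 0.440 FPKM (log2 fold change 0.41 ± 0.05 SE, edgeR adjusted p = 0.000367), and its relative MICA did not pass (10.9 ± 0.713 and 11.1 ± 0.261 FPKM, edgeR adjusted p = 0.98). HLA-H, a class I pseudogene, went from 8.31 ± 0.934 to 10.9 ± 1.25 FPKM (edgeR adjusted p = 0.0229), is open to shared fragments as above, and lost its call in 3 of 6 fits with a library left out (log2 fold change 0.28 to 0.38, adjusted p 0.0583 to 0.0926). Class II genes, with which TAP1 and TAP2 are interspersed, were nearly silent: of 9, only HLA-DMA reached the mean of 1 FPKM, and it rose from 0.802 ± 0.0576 to 2.43 ± 0.380 FPKM (edgeR adjusted p = 0.000145), while HLA-DRA was at 0 in all libraries.

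For the factors that act on class I promoters, 3 of 12 tested rose (25%) and 1 fell (8.33%), beside 24.5% and 25.7% of all tested rows. The share that rose was thus near that of all rows. IRF1, which binds the IRF site, rose from 4.22 ± 0.348 to 6.42 ± 0.0536 FPKM (SD, 3 libraries each; log2 fold change 0.59 ± 0.07 SE, edgeR adjusted p = 0.000298). RFX5, the DNA-binding subunit of the RFX complex with which NLRC5 works, rose from 14.9 ± 0.885 to 20.6 ± 0.284 FPKM (log2 fold change 0.44 ± 0.05 SE, edgeR adjusted p = 0.000243), and its partner RFXANK fell from 42.5 ± 3.08 to 35.9 ± 1.36 FPKM (log2 fold change -0.26 ± 0.06 SE, edgeR adjusted p = 0.00755). NFKB1, an NF-κB subunit gene, went from 14.9 to 17.6 FPKM (edgeR adjusted p = 0.0128), a call lost without resistant replicate 2 (log2 fold change 0.22, adjusted p = 0.054). CREB1, ATF1, NFYA, NFYB and NFYC, the factors of the X2 core and the Y box, had log2 fold changes of -0.06, 0.01, -0.00, -0.06 and 0.08 and did not pass.

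Interferon reception and relay drives class I expression. Of its 11 tested genes 4 rose (36.4%) and 2 fell (18.2%), beside 24.5% and 25.7% of all tested rows. The number that fell was 3 with a GC correction or without control replicate 1. Without control replicate 1 the number that rose was 5. STAT2 rose from 17.6 ± 0.135 to 28.1 ± 0.852 FPKM (SD, 3 libraries each; log2 fold change 0.66 ± 0.04 SE, edgeR adjusted p = 9.44e-06), and the kinase TYK2 from 20.5 ± 2.23 to 28.7 ± 0.612 FPKM (log2 fold change 0.47 ± 0.07 SE, edgeR adjusted p = 0.000899). SOCS3, a feedback inhibitor, rose from 15.4 to 18.4 FPKM (edgeR adjusted p = 0.00775). Of those that fell, JAK2 went from 4.10 ± 0.534 to 2.92 ± 0.374 FPKM (log2 fold change -0.51 ± 0.12 SE, edgeR adjusted p = 0.00868). The receptor genes IFNGR1, IFNGR2, IFNAR1 and IFNAR2 did not pass, at log2 fold changes of -0.09, -0.11, -0.03 and 0.05.

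Removal of class I from the surface, or its restraint, was represented by 8 genes, of which 4 rose (50%) and 1 fell (12.5%). Over all tested rows these shares were 24.5% and 25.7%. With a GC correction or without control replicate 1 the number that fell was 2. MAL2, a membrane-traffic protein reported to draw class I molecules inward in breast cancer cells, fell from 291 ± 69.1 to 153 ± 5.22 FPKM (SD, 3 libraries each; log2 fold change -0.95 ± 0.14 SE, edgeR adjusted p = 0.000792). TRAF3, a restraint on NF-κB signalling, rose from 8.87 ± 0.313 to 12.7 ± 0.202 FPKM (log2 fold change 0.50 ± 0.05 SE, edgeR adjusted p = 5.93e-05). TMEM127, which is part of a complex that sends class I to lysosomes, went from 18.0 to 20.8 FPKM (edgeR adjusted p = 0.0115) and lost its call without resistant replicate 2 (log2 fold change 0.18, adjusted p = 0.0554) and without resistant replicate 3 (0.18, adjusted p = 0.0518).

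Since 6 of the 9 genes lie on the short arm of chromosome 6, their neighbours were also examined, over an interval chosen after the data were seen that runs from HLA-E to TAPBP (chr6:30457183-33282164, hg19, 2.82 Mb). Among 88 tested rows in it that are none of the 9 genes, 29 were higher (33.0%), 12 lower and 47 did not pass, with a median log2 fold change of 0.12. Some rows overlap on the same strand at similar counts, so these rows are not all separate genes. DDX39B and ATP6V1G2-DDX39B are both among the higher rows, as are MSH5 and MSH5-SAPCD1, while RNF5 and RNF5P1 are both among those that did not pass. Leaving out every gene of the pathway lists, 25 of 83 were higher (30.1%) and 12 lower, beside 24.5% and 25.7% of all tested rows. In this interval HLA-B, HLA-C, HLA-E, TAP1 and TAPBP rose and TAP2 did not pass. With a GC correction 20 of the 88 neighbours were lower, and 25 were higher.

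**Figure D5:**
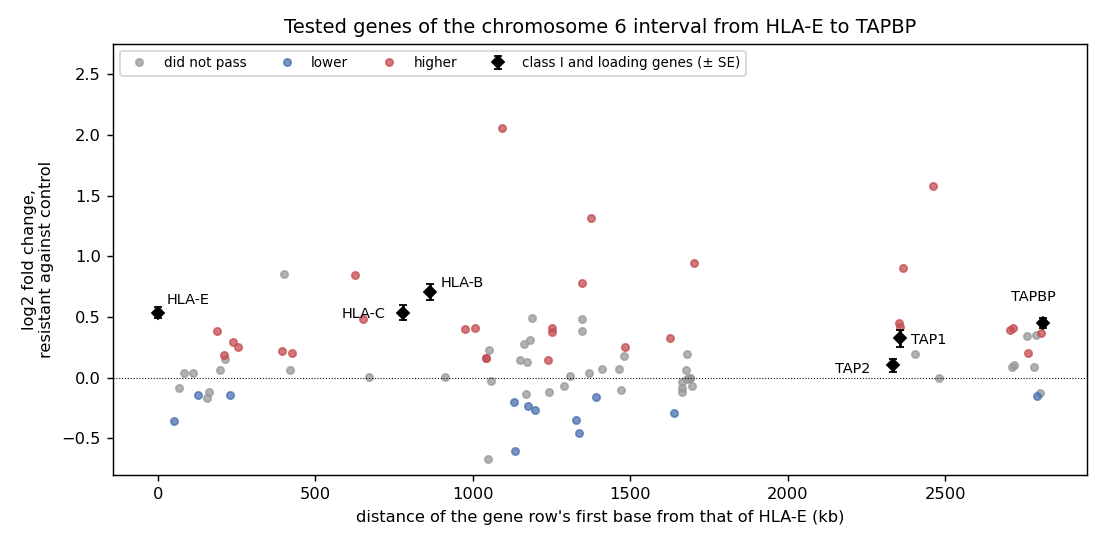
Log2 fold change of resistant against control (y axis) for the tested gene rows between HLA-E and TAPBP, by distance of the row's first base from that of HLA-E in kb (x axis). Black diamonds with SE are the 6 genes described here and coloured dots their 88 neighbours; higher, lower and uncalled neighbours are mixed along the interval.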

How the data were processed

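RNA from 3 control and 3 resistant PC-3 libraries was sequenced. Per the submitters' processing notes, TopHat2 2.0.6 and the genome hg19 were used; no source used here names the counter, gene models or strand setting. Each table holds, per the file headers, a deposited fragment count (whole numbers) for each gene row. The authors derived the deposited FPKM from that count, the mRNA size and a library total, which summed gene counts exceed by 5.56% to 5.84%. The deposited score (FPM) was not tested.

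Each gene row was a feature; 13122 rows with a mean FPKM of at least 1 over 6 libraries entered a quasi-likelihood test with TMM factors and group as the only term (edgeR 4.0.16, R 4.3.3), with Benjamini-Hochberg adjustment at 0.05. The biological coefficient of variation was 7.31%. SE is the fold change divided by the square root of F. Alternatives used DESeq2 1.42.0, limma 3.58.1 on log2(FPKM + 0.5), and a loess GC correction (span 0.3; GENCODE 29 transcripts). The genes and lists were chosen with earlier results of these data known. Named list genes were the 4 largest called changes at 5 FPKM or more in the higher group; Some genes that this rule takes are not reported here. PSMB5, PSMB9, PSME3, MICA, HLA-DMA, HLA-DRA, JAK2, the X2 and Y box factors and the interferon receptors were named after their values were seen. Starts, counted from 0 in the files, are given from 1. Promoters are from RefSeq (GRCh38.p14). The test was run on simulated counts with the same dispersion for every gene, and 12922 of 13122 genes unchanged. Among the unchanged genes 5 were called. It recovered 58% of genes changed 1.25-fold and 96% of those changed 1.5-fold. The simulation held far fewer changed genes than were called here and no GC deviation, so it does not give the error rate of these data. The 3 libraries per group limit the precision, and counting error is not the only error.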

Additional observations from a re-analysis of the deposited data

How the results depend on the processing

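HLA-B, HLA-C, HLA-E, TAP1, TAPBP and ERAP1 kept their direction and call in all 18 alternatives (other scaling, filters, tools, pseudocounts, handling of repeated symbols, GC correction, replicate block, each library left out), at log2 fold changes of 0.65 to 0.74, 0.49 to 0.58, 0.47 to 0.57, 0.26 to 0.40, 0.39 to 0.48 and 0.47 to 0.58. TAP2 passed in none (0.034 to 0.13). B2M passed with the GC correction (0.10) and without control replicate 1 (0.0745), its range with a library left out being 0.0158 to 0.0745; the cause was not tested. The number of the genes called higher was 6, and 7 in those fits, and 0 were lower in every fit. List genes that fell numbered 8 to 19 with a library left out, against 15. NPEPPS had a log2 fold change of 0.0023 with the GC correction. In the chromosome 6 interval the lower calls went from 12 to 20 with the GC correction. Of 36 called list genes, 14 lost the call in at least 1 fit that left out a library or corrected for GC. The heavy chain to B2M ratio (resistant over control) stayed at 1.38 to 1.49 with a library left out. Same-numbered libraries did not deviate together (r = -0.024, -0.057 and -0.096). With so few libraries this cannot show whether the numbers pair the samples. With a replicate block 6 of the genes were higher and 0 lower, list genes 21 and 12, and all rows 3069 and 3225. The low counts of NLRC5 limit what can be said of it.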
